A study of Mus musculus with 18 samples.

Results

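The subject is a set of 10 genes, of 15035 with values, whose kidney cortex levels lay apart from those of healthy mice by a like amount in all 5 groups of Mrl/lpr mice, whatever the mice had been given. The genes are Ezh1, Slc22a26, Cp, Sult2a4, Olfr1356, Naaladl1, Vipr1, Pde6a, Lin7a and Zfp788. They were chosen by their measured differences from healthy in these same libraries, so every difference from healthy below describes the choice and carries no test. All 10 symbols were found in all 18 libraries, and no filter removed any of them.

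Kidney cortex from 18 mice was sequenced, with 3 mice in each of 6 groups. The Mrl/lpr genotype carries a defect of Fas, the death receptor that removes activated lymphocytes, and such mice develop an autoimmune kidney disease used as a model of lupus nephritis. The 5 Mrl/lpr groups received vehicle, MMF (mycophenolate mofetil, which blocks purine synthesis in lymphocytes), FK506 (tacrolimus, a calcineurin inhibitor), prednisone (a glucocorticoid) or a regimen labelled multi-target, and the healthy mice were Mrl/Mpj wild type on vehicle. The labels give neither ages, sexes and doses nor the parts of the multi-target regimen, and no batch. Every Mrl/lpr mouse differed from every healthy mouse in genotype, so genotype, disease and any other difference between these mice cannot be told apart.

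The 10 genes have different roles. Ezh1 is a histone methyltransferase that can take the place of Ezh2 in the Polycomb repressive complex, which silences genes through methylated histone H3. Slc22a26 belongs to the organic anion and cation transporters through which proximal tubule cells, the main cell type of the cortex, take up solutes, and Cp encodes ceruloplasmin, a copper-carrying ferroxidase made in the liver and by several other tissues in inflammation. Sult2a4 is a cytosolic sulfotransferase of the hydroxysteroid family, Vipr1 is a receptor for vasoactive intestinal peptide, Pde6a is a catalytic subunit of the phosphodiesterase of rod photoreceptors, and Lin7a is a scaffold protein of epithelial polarity and synapses.

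The start regions of 4 of the genes are shown because they are the 2 largest differences in either direction for which RefSeq lists a promoter and whose reads are whole numbers in every library. Each runs from 250 bases before the annotated start to 50 bases after it, 5′ to 3′ on the gene's strand, from RefSeq on GRCm38.p6. Capitals mark any match, on either strand, to 6 motifs that were searched: the TATA box TATAAA, the CCAAT box CCAAT, the GC box GGGCGG, the interferon-gamma activated site (GAS) TTCNNNGAA, the core of the interferon-stimulated response element (ISRE), which is TTTC, any 2 bases and TTTC again, and CAAAGTCCA, a form of the site of the liver and kidney factor HNF4. The Ezh1 region is chr11:101226414-101226713 on the minus strand, that of Olfr1356 is chr10:78847864-78848163 on the minus strand, that of Slc22a26 is chr19:7802618-7802917 on the minus strand and that of Sult2a4 is chr7:13989539-13989838 on the minus strand.
Ezh1: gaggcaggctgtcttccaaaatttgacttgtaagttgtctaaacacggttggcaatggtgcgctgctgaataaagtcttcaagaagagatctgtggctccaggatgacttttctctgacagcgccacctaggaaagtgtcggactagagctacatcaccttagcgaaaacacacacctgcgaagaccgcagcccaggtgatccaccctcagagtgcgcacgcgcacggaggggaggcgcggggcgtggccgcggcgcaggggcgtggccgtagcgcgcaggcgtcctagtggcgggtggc
Olfr1356: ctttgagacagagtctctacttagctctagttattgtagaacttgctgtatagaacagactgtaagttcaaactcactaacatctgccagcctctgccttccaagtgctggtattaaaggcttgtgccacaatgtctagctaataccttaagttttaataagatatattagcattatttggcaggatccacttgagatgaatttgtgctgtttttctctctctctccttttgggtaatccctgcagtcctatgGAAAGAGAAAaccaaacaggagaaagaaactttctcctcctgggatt
Slc22a26: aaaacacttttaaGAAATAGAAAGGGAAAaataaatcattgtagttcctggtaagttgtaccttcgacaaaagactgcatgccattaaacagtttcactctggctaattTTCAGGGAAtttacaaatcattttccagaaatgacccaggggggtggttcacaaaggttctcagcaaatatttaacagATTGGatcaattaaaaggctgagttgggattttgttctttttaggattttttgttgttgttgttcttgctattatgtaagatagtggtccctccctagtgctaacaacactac
Sult2a4: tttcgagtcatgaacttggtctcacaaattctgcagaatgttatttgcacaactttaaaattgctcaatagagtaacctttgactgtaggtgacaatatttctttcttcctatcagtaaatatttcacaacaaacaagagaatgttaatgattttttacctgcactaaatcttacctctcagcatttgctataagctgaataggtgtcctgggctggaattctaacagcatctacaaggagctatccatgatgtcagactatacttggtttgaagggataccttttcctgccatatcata

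These start regions have little in common. The Ezh1 region is rich in CpG dinucleotides, with 23, against 1 in Slc22a26, 1 in Sult2a4 and 0 in Olfr1356, and the median over the promoters of 27025 genes was 7. No motif of the 6 was found in Ezh1 or Sult2a4. The Slc22a26 region holds 2 overlapping ISRE cores, which begin 237 and 231 bases before the start. It also holds a GAS at 141 bases and a CCAAT box at 63 bases before the start. The Olfr1356 region holds 1 ISRE core just after its RefSeq start. That start lies well inside the gene as GENCODE places it (chr10:78845052-78852166, minus strand), away from the GENCODE start at 78852166. The CpG count and ISRE core of Olfr1356 thus describe the RefSeq start only. Of all promoters 3.5% hold an ISRE core, 8.5% a GAS, 37.9% a CCAAT box, 35.9% a GC box, 14.2% a TATA box and 0.5% the HNF4 form. Promoters were listed for 8 of the 10 genes. In the other 4, Cp had 2 CpG and no motif, Lin7a had 18 CpG with 1 CCAAT box and 1 GC box, Vipr1 had 35 CpG with 1 CCAAT box and 4 GC boxes, and Zfp788 had 8 CpG with 2 CCAAT boxes. A match of letters describes the sequence and is no evidence that a factor binds there.

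The deposited values are on a log2 scale, with no correction for gene length, so levels are compared between mice and not between genes. Undoing the scale gave between 28939845 and 41066953 reads per library. All 9 cortex markers looked up, from the podocyte gene Nphs1 to the tubule genes Slc34a1 and Umod, stood at 10.48 or more in every Mrl/lpr library and at 10.62 or more in every healthy one. The immune score, the mean log2 value of 15 leukocyte genes, ran from 8.27 to 10.61 in Mrl/lpr mice, against 7.69 to 7.86 in healthy mice, and the proximal tubule score, the mean of 16 genes of that cell type, ran from 14.14 to 15.79 against 16.01 to 16.14. Adipocyte markers stood apart in vehicle mouse 17 (mean of 5 genes 11.95) and adrenal markers in FK506 mouse 12 (mean of 5 genes 11.67), against at most 5.57 and 5.74 in healthy mice. Xist, the transcript of the inactive X chromosome, was at 12.62 to 13.98 in Mrl/lpr mice and at 13.62 to 13.94 in healthy mice. The Y-linked genes Eif2s3y (6.57 to 7.73 in Mrl/lpr mice, against 8.49 to 8.65 in healthy mice) and Ddx3y (7.41 to 8.31 against 8.49 to 8.64) did not overlap, whereas Kdm5d and Uty did. Of all genes, 19.9% had the 15 Mrl/lpr libraries on one side of the 3 healthy ones. A difference in sex between the groups was not tested. Of the genes known for sex-dependent levels in mouse kidney, 9 of 11 had a lower mean in Mrl/lpr mice. Kap had the largest difference, at 7.79 to 17.42 against 17.76 to 17.87, while Slco1a1 (0.02) and Cyp4a12a (0.49) had a higher mean. That list was not split by the sex in which a gene is higher, so its count gives no direction of sex. The part of these markers in the differences of the 10 genes was not tested. The slopes fitted below use only the spread among Mrl/lpr mice within groups.

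Fas itself, the gene of the lpr allele, was at 7.73 to 8.28 in Mrl/lpr mice and at 6.63 to 6.85 in healthy mice, a pooled difference of 1.23 ± 0.11 (SE). The pooled difference is the mean of the 5 Mrl/lpr group means minus the healthy mean, on the log2 scale. The values do not separate parts of the Fas transcript, so they do not check the allele.

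Ezh1 had the smallest spread among the 15 Mrl/lpr mice of the 10 genes (SD 0.19), though not the narrowest range of group means. Its values were 12.15, 11.92 and 11.95 in vehicle mice, 11.85, 12.46 and 12.48 on MMF and 12.08, 12.11 and 12.04 on FK506. They were 12.11, 12.18 and 12.35 on prednisone and 12.13, 12.22 and 11.99 on the multi-target regimen, against 9.63, 9.75 and 9.93 in healthy mice. The lowest Mrl/lpr library lay 1.92 log2 units above the highest healthy one, so the groups did not come near each other. In reads this is 2800 to 4736 per Mrl/lpr library and 711 to 859 per healthy library. The pooled difference was 2.37 ± 0.11 (SE), or 5.16-fold, and it was 12.8 times the SD of the 15 Mrl/lpr values, the highest such ratio among the 15035 genes.

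The Polycomb partners of Ezh1 showed no step of this size. Ezh2, the paralog of Ezh1, was at 8.23 to 9.60 in Mrl/lpr mice and at 8.61 to 8.84 in healthy mice (pooled difference 0.08 ± 0.16, limma adjusted p = 0.758). Of 12 further genes of Polycomb repression and H3K27 demethylation, limma called 2 higher and 0 lower in Mrl/lpr mice: Phf1, which tethers the complex to chromatin, by 0.64 ± 0.12, and the demethylase Kdm6b by 0.35 ± 0.11. The core subunit Eed had a pooled difference of −0.03 ± 0.08. In the pooled comparison limma called 18.3% of all genes higher and 7.91% lower. Counts of called family genes, here and below, can be read against these shares.

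Zfp788, named as a zinc finger gene, had the tightest Mrl/lpr values after Ezh1 but not the tidy healthy ones. Its values were 9.26, 9.43 and 9.15 on vehicle, 9.43, 9.64 and 9.88 on MMF, 9.55, 9.36 and 9.18 on FK506, 9.18, 9.35 and 9.43 on prednisone and 9.22, 9.43 and 9.32 on the multi-target regimen. Healthy mice 1 and 2 were at 6.90 and 7.29, and healthy mouse 3 was at 9.24, inside the Mrl/lpr range. In reads, the Mrl/lpr mice had 492 to 631, against 115, 130 and 531 in the healthy mice. A step away from healthy thus held for Zfp788 against 2 of the 3 healthy mice and not against the other. Its pooled difference was 1.58 ± 0.31, and 2.29 without healthy mouse 3, with 1.12 as the lowest value when either of the other healthy mice was left out.

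Healthy mouse 3 was not like the Mrl/lpr mice over the other 9 genes, where it lay with healthy mice 1 and 2. Over all genes, 11 had healthy mouse 3 at or past the near edge of the Mrl/lpr range while healthy mice 1 and 2 were more than 0.5 log2 units short of it, against 4 genes for healthy mouse 1 and 3 for healthy mouse 2 by the same rule. Of the 11, Zfp788 had healthy mouse 3 farthest from the others, 2.14 above the mean of healthy mice 1 and 2. The other genes were Arl11 (1.87), the interferon-induced chemokine Cxcl10 (1.35), the interferon-stimulated genes Ifit1 (1.20) and Isg15 (0.73), the Wnt antagonist Sfrp4 (1.10), the myeloid lectins Clec4a3 (0.89) and Clec5a (0.88), Evi2b (0.68), Sh2d2a (0.65) and Zbtb16 (0.63). Immune scores were 7.69, 7.75 and 7.86 in healthy mice 1, 2 and 3. These genes were singled out after their values were seen.

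**Figure D1:**
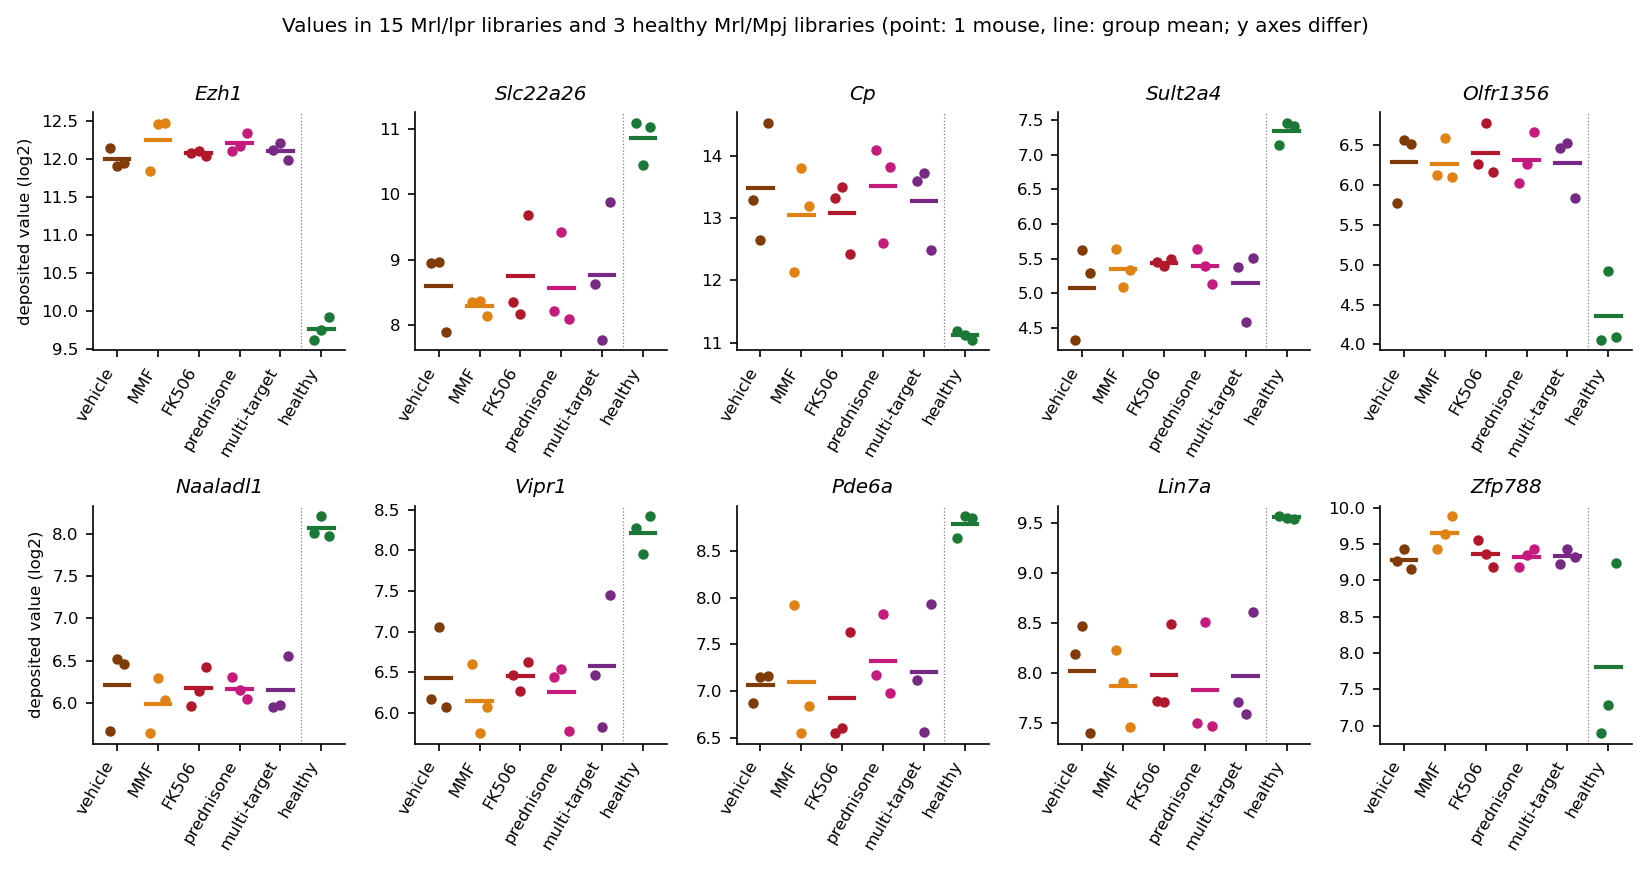
Deposited log2 values of the 10 genes, 1 panel a gene with its own y axis, by group along the x axis. Points are mice and lines are group means of 3 mice, with the 5 Mrl/lpr groups to the left of the dotted line and the healthy group to its right. In 9 panels no Mrl/lpr point reaches the healthy points, and in the Zfp788 panel healthy mouse 3, at 9.24, lies among the Mrl/lpr points.

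Among the genes of transport and metabolism, 3 were lower in Mrl/lpr mice. Slc22a26 had values of 8.94, 8.96 and 7.88 on vehicle, 8.35, 8.36 and 8.14 on MMF and 8.35, 8.17 and 9.69 on FK506. It had 8.21, 9.42 and 8.09 on prednisone and 8.63, 7.77 and 9.89 on the multi-target regimen, against 11.10, 10.45 and 11.04 in healthy mice. The groups did not overlap, but the Mrl/lpr mice spread over more than 2 log2 units and the gap to the lowest healthy mouse was 0.56. The pooled difference was −2.28 ± 0.40, a level 4.84-fold lower than in healthy mice.

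Sult2a4 ran from 4.33 to 5.64 in Mrl/lpr mice, against 7.14, 7.46 and 7.41 in healthy mice, with 19 to 50 reads against 136, 146 and 150 (pooled difference −2.05 ± 0.25). The lowest value was vehicle mouse 7, and every Mrl/lpr mouse was at least 1.50 below the lowest healthy one. The reads behind this gene may be shared, since its transcript is 94.1% identical to that of Sult2a1, 94.0% to Sult2a3 and 93.7% to Sult2a5 over its whole length of 984 bases, and none of these paralogs has a value here. Which of these genes was lower is therefore uncertain.

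Naaladl1, a peptidase related to the enzyme that cleaves N-acetylaspartylglutamate, ran from 5.64 to 6.55 in Mrl/lpr mice, with 38 to 79 reads, against 8.01, 8.21 and 7.98 in healthy mice, with 248, 246 and 223 reads. Its pooled difference was −1.93 ± 0.19, and the gap between the groups was 1.44. Its related genes were not called: Folh1 had 0.09 ± 0.38, Naalad2 −0.10 ± 0.18, Cpq −0.11 ± 0.12 and Rimkla −0.05 ± 0.16, so 0 of 4 passed limma at an adjusted p of 0.05 in either direction.

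Cp was higher in Mrl/lpr mice and varied most among them. It was at 13.29, 12.65 and 14.53 on vehicle, 12.14, 13.80 and 13.20 on MMF and 13.33, 13.50 and 12.43 on FK506. It was at 14.10, 12.60 and 13.82 on prednisone and 13.59, 13.72 and 12.49 on the multi-target regimen, against 11.19, 11.12 and 11.05 in healthy mice. The healthy mice were close to each other (SD 0.07, n = 3), whereas the 15 Mrl/lpr mice had an SD of 0.69 with vehicle mouse 36 highest and MMF mouse 1 lowest. The pooled difference was 2.16 ± 0.41, or 4.47-fold. Cp overlaps Hps3 on the other strand, and the library kit named in the labels does not mark strand, so reads of the overlap cannot be assigned to either gene. Its values were whole numbers of reads on the recovered scale in none of the 18 libraries, which was also true of Lin7a, so no reads are given for these genes.

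Of 17 further genes of iron and copper handling, limma called 4 higher and 0 lower. The named ones are Lcn2, the siderophore-binding lipocalin released by injured tubules (3.43 ± 0.92), the metalloreductase Steap4 (2.09 ± 0.38) and the ferritin heavy chain Fth1 (0.42 ± 0.13). Within the Mrl/lpr groups, 5 of the 17 fell with the proximal tubule score and 2 rose, where 13.5% of all genes had a called slope in either direction. Lcn2 (slope −3.51 ± 0.67, limma adjusted p = 0.00657) and Steap4 (−1.15 ± 0.35, adjusted p = 0.0482) fell, the transferrin receptor Tfrc (1.02 ± 0.18, adjusted p = 0.00439) and the copper transporter Slc31a1 (0.37 ± 0.08, adjusted p = 0.0102) rose, and Fth1 did not pass (−0.11 ± 0.15, adjusted p = 0.661).

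The receptors and signalling genes were Vipr1, Pde6a and Olfr1356. Vipr1 ran from 5.75 to 7.45 in Mrl/lpr mice, with 38 to 134 reads, against 8.28, 7.96 and 8.42 in healthy mice, with 299, 206 and 301 reads (pooled difference −1.85 ± 0.29). The groups did not overlap, with a gap of 0.51, and multi-target mouse 39 stood nearest to the healthy mice. Of 6 other genes of the vasoactive intestinal peptide receptor family and its accessory proteins, 1 was called, Ramp3, which modifies receptors of this class, higher by 0.61 ± 0.16.

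Pde6a ran from 6.55 to 7.93 in Mrl/lpr mice, with 66 to 187 reads, against 8.64, 8.87 and 8.85 in healthy mice, with 384, 387 and 406 reads (pooled difference −1.66 ± 0.30). Its partner in the rod enzyme, Pde6b, was also lower, at 6.17 to 6.84 against 7.35 to 7.46 (−0.85 ± 0.15). In all, limma called 2 higher and 2 lower of 19 genes of cyclic GMP synthesis, breakdown and response, the higher ones being the phosphodiesterase Pde2a (0.74 ± 0.18) and the natriuretic peptide receptor Npr1 (0.64 ± 0.13).

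Olfr1356, named as an olfactory receptor, was higher in Mrl/lpr mice at 5.78 to 6.78, against 4.06, 4.92 and 4.09 in healthy mice, with 44 to 100 reads against 16, 25 and 15 (pooled difference 1.96 ± 0.24). These healthy read counts are the lowest of the set, and the difference was 1.21 after quantile normalization and 1.55 with a pseudocount of 10, so its size depends on how low values are handled. Up to 18.8% of its transcript aligns to transcripts of other genes, Olfr1260 and Cast among them, at 85.4% and 88.6% identity. Of 11 other olfactory receptor genes with values, 4 were called higher and 0 lower, led by Olfr729 (1.50 ± 0.12), Olfr713 (1.01 ± 0.15) and Olfr856-ps1 (0.66 ± 0.12). That list, and that of 323 other Zfp genes, were taken by symbol after the values were at hand. Of the Zfp genes 41 were called higher and 11 lower, with Zfp57 at 1.06 ± 0.20, Zfp92 at −1.05 ± 0.14 and Zfp949 at 0.99 ± 0.17. Over all genes 18.3% were called higher and 7.91% lower, so neither count is read as a result about the family.

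Lin7a was at 8.19, 8.47 and 7.40 on vehicle, 8.23, 7.91 and 7.46 on MMF and 7.72, 7.71 and 8.49 on FK506. It was at 7.50, 8.51 and 7.47 on prednisone and 7.71, 7.59 and 8.61 on the multi-target regimen, against 9.57, 9.55 and 9.54 in healthy mice. The healthy mice were nearly identical (SD 0.01, n = 3), and every Mrl/lpr mouse lay at least 0.94 below them. The pooled difference was −1.62 ± 0.27. Of 16 other genes of this polarity complex, 1 was called higher and 2 lower: Mpp3 (0.24 ± 0.08), Dlg2 (−1.20 ± 0.13) and Mpp4 (−1.02 ± 0.25).

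The choice of the genes fixes their counts against healthy, which are given with the share of all genes called as background. In the pooled comparison all 10 were past a limma adjusted p of 0.05, 4 higher and 6 lower, where 26.2% of all genes were called, 18.3% higher and 7.91% lower. The 10 were also all past it in each group against healthy, where the share of all genes was 22.4% for vehicle, 15.9% for MMF, 7.27% for FK506, 16.7% for prednisone and 6.98% for the multi-target group. These comparisons use the same 3 healthy mice. With 1 library left out, the pooled count stayed at 10, but the count fell to 4 for FK506 without FK506 mouse 12 and to 4 for the multi-target group without multi-target mouse 6, multi-target mouse 18 or healthy mouse 1. It was 5 for FK506 without FK506 mouse 3 or any 1 healthy mouse, and 5 for the multi-target group without healthy mouse 2 or 3. The lowest counts were 7 for MMF, without healthy mouse 2, 8 for prednisone and 9 for vehicle. The genes that then missed the threshold were Slc22a26, Cp, Vipr1, Pde6a, Lin7a and Zfp788 in different combinations, and never Ezh1, Sult2a4, Olfr1356 or Naaladl1. The number called over all genes moved as well with 1 library left out. It ran from 239 to 1814 for FK506 (1093 with all libraries) and from 223 to 1759 for the multi-target group (1049 with all libraries). Zfp788 also missed it in all 5 groups when only the 2 groups compared were fitted, and Cp and Zfp788 missed it in the FK506 and multi-target groups after quantile normalization. In 9 of the 10, Zfp788 being the exception, all 15 Mrl/lpr libraries lay on one side of the healthy ones, as they did for 19.9% of all genes.

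Group by group, the differences from healthy were close to each other beside their errors. For Ezh1 they were 2.24 on vehicle, 2.50 on MMF, 2.31 on FK506, 2.44 on prednisone and 2.35 on the multi-target regimen, each ± 0.15 (SE). For Olfr1356 they were 1.94, 1.92, 2.05, 1.96 and 1.93 in the same order (± 0.31), which makes it the gene with the narrowest range of group means, 0.13. For Cp they were 2.37, 1.93, 1.97, 2.39 and 2.15 (± 0.53), and for Slc22a26 −2.27, −2.59, −2.13, −2.29 and −2.10 (± 0.51). In Cp and Slc22a26 the SE exceeded the whole range of the 5 group means (0.46 and 0.48), so differences between treatments of that size were not detectable with these mice.

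**Figure D2:**
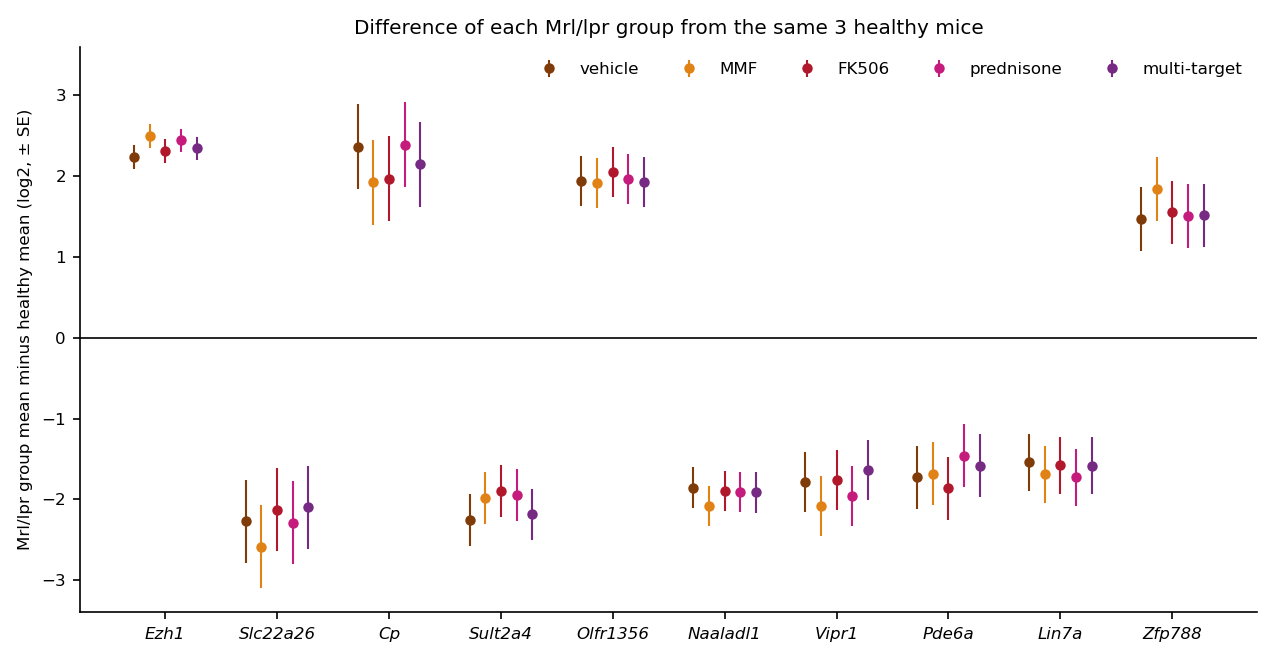
Difference of each Mrl/lpr group mean from the healthy mean (log2, y axis) for the 10 genes (x axis), with bars of ± 1 SE from the fit over 18 libraries. Each gene has 5 points, from vehicle at the left to multi-target at the right, and they share the same 3 healthy mice. The bars of Ezh1 (± 0.15) are the shortest and those of Cp (± 0.53) the longest.

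The other 6 genes were as even. The range of the 5 group means was 0.36 for Sult2a4, 0.23 for Naaladl1, 0.44 for Vipr1, 0.40 for Pde6a, 0.19 for Lin7a and 0.37 for Zfp788. Its median over the 10 genes was 0.36, the same as over all 15035 genes, so an even level across treatments was no narrower in absolute terms than that of the usual gene. The size of the difference from healthy, which the choice fixed, had a median of 1.94 over the 10 genes and 0.23 over all genes.

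Between the drug arms and vehicle the largest difference of any of the 10 genes was Cp on MMF, −0.44 ± 0.53. Ezh1 was 0.26 ± 0.15 higher on MMF than on vehicle and Zfp788 0.37 ± 0.40 higher. For no gene did an F test over the 5 Mrl/lpr groups pass (0 of 10 here, beside 0% of all genes, the smallest limma adjusted p being 0.159 and 2078 genes having an unadjusted p below 0.05). Without MMF mouse 1, that test called 2097 genes, again with 0 of the 10 among them. The likeness among groups was part of the choice, and a p that misses the threshold does not show that the drugs left these genes unmoved.

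Except for Zfp788, most of the variation of these genes among the 15 Mrl/lpr mice lay within groups. The share of it that lay between the groups was 2.67% for Olfr1356, 2.87% for Lin7a, 7.41% for Slc22a26, 7.81% for Pde6a, 8.02% for Naaladl1, 8.37% for Cp, 11.7% for Vipr1 and 14.8% for Sult2a4. It was 26.99% for Ezh1 and 50.8% for Zfp788, the tightest genes, and the median was 8.2% over the 10 and 31.7% over all genes. Like group means were part of the choice, so a low share over the 10 genes describes the choice. For Zfp788 the MMF mice had the highest group mean, 9.65 ± 0.22 (SD, n = 3), against 9.28 ± 0.14 on vehicle.

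Set against the spread among Mrl/lpr mice, the 10 genes fall into a tight and a wide part. The pooled difference was 12.8 times that spread for Ezh1, 8.12 times for Zfp788, 6.78 times for Naaladl1, 6.42 times for Olfr1356 and 5.43 times for Sult2a4, which rank 1, 4, 11, 13 and 38 among all genes. It was 3.95 times for Vipr1, 3.69 for Lin7a, 3.49 for Slc22a26, 3.36 for Pde6a and 3.14 for Cp, which rank between 210 and 543. Over all genes the median ratio was 0.96. The ratio leaves out the spread of the healthy mice. For Zfp788 that spread was an SD of 1.25, with healthy mouse 3 inside the Mrl/lpr range, so its high ratio is no clean step.

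**Figure D3:**
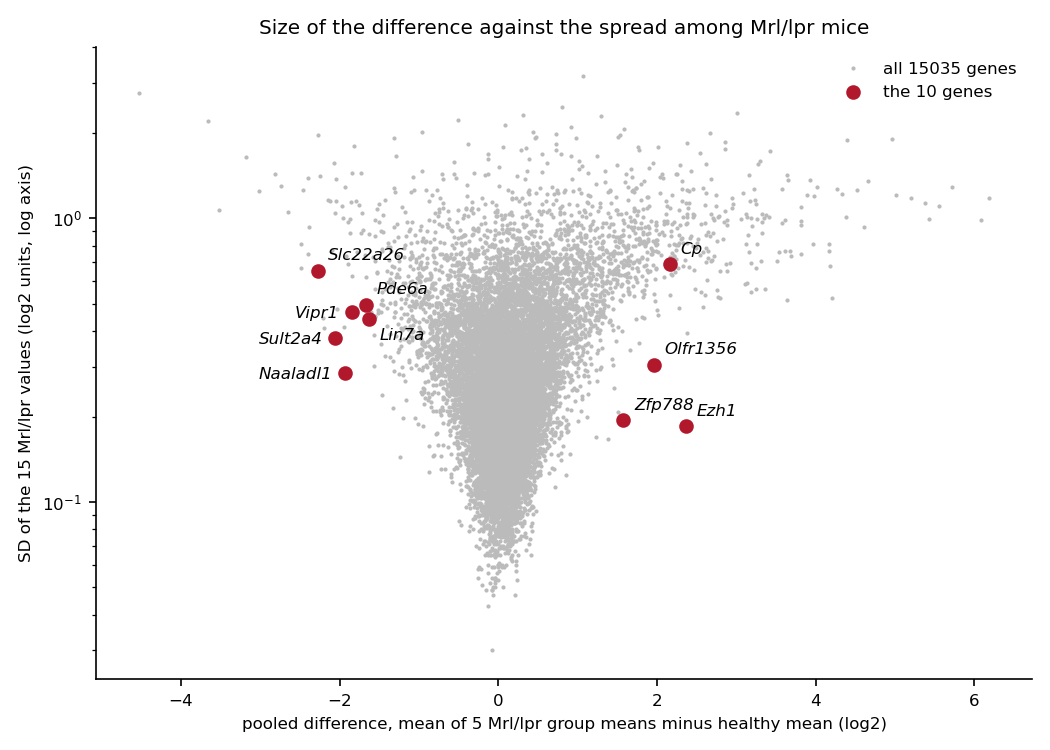
Pooled difference from healthy (log2, x axis) against the SD of the 15 Mrl/lpr values (log2 units, logarithmic y axis) for all 15035 genes in grey and the 10 genes in red. Ezh1 and Zfp788 lie lowest among the red points, with SDs of 0.19, and Cp and Slc22a26 highest, with 0.69 and 0.65.

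Step-like genes outside the set were common. With all 15 Mrl/lpr libraries on one side of the healthy ones and a pooled difference of at least 1, there were 722 genes, 9 of the 10 among them. By the ratio of the difference to the spread, the leading higher ones were Ska3, a kinetochore protein (pooled difference 1.38), the complement component C4b (4.20), Fas (1.23), Olfr729 (1.50) and H2-DMb1, of antigen presentation (3.63), with ratios from 7.02 for H2-DMb1 to 8.27 for Ska3. The leading lower ones were Thbs4, a matrix protein (−1.24), Scfd2 (−1.32), the Wnt antagonist Dkk1 (−1.46), Dlg2 (−1.20) and Pcbp3 (−1.02), with ratios from 5.38 for Pcbp3 to 8.58 for Thbs4. This list is a description, made on the same contrast.

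The genes were chosen by group means. The choice did not use how mice of the same treatment differed along the scores, so slopes within groups can be tested. The size of the spread within groups affects how alike group means are, so that size is not independent of the choice. For each gene, the slope of its value on the proximal tubule score and on the immune score was fitted over the 15 Mrl/lpr mice with the group means removed, with limma and Benjamini-Hochberg adjustment over all 15035 genes. Of the 10 genes 3 passed for the proximal tubule score, where 13.5% of all genes did, and 1 passed for the immune score, where 19.6% did. In whole tissue, fewer cells of a type and less RNA per cell cannot be told apart, so a slope says only that the 2 measures moved together.

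Cp fell with the proximal tubule score. Its slope was −1.74 ± 0.20 log2 units per unit of score (limma adjusted p = 0.000592), and it stayed between −2.35 and −1.64 in 21 alternatives, all past the threshold. Vehicle mouse 36, which had the lowest score of all mice at 14.14, had the highest Cp, and MMF mouse 1, with the highest score at 15.79, had the lowest. Cp did not pass on the immune score (0.06 ± 0.50, adjusted p = 0.947).

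Lin7a and Slc22a26 moved the other way. Lin7a rose with the proximal tubule score, at 1.03 ± 0.21 per unit (limma adjusted p = 0.00869), and passed in all 21 alternatives, which ran from 0.93 to 1.39. Slc22a26 rose at 1.34 ± 0.35 (adjusted p = 0.0267), but did not pass without prednisone mouse 29 (1.22, adjusted p = 0.0851) or without vehicle mouse 17 and FK506 mouse 12 together (1.48, adjusted p = 0.073). Vipr1 had a slope of 0.85 ± 0.29 that did not pass (adjusted p = 0.0734), and passed under 3 of its 20 alternatives, with adjusted p from 0.0439 to 0.264. Pde6a had 0.72 ± 0.35 (adjusted p = 0.194), and 1.81 without vehicle mouse 36 (adjusted p = 0.0176). Vehicle mouse 36 stands far from the other mice on this score.

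Among the 6 genes lower in Mrl/lpr mice, multi-target mouse 39 was the Mrl/lpr library nearest to healthy in 5: Slc22a26 (9.89), Naaladl1 (6.55), Vipr1 (7.45), Pde6a (7.93) and Lin7a (8.61). Its proximal tubule score, 15.77, was second only to that of MMF mouse 1, which was nearest to healthy in none of the 6 and farthest from it in Naaladl1 (5.64). In Sult2a4, the other lower gene, prednisone mouse 23 was nearest (5.64). Multi-target mouse 39 was singled out after its values were seen, from the same values as the slopes, and adds nothing to them.

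The 5 genes with the largest differences beside their spread among Mrl/lpr mice did not pass on the tubule score. Its slope was −0.14 ± 0.14 for Ezh1 (adjusted p = 0.545), 0.04 ± 0.13 for Zfp788 (0.857), −0.11 ± 0.26 for Naaladl1 (0.808), −0.36 ± 0.26 for Olfr1356 (0.384) and 0.18 ± 0.33 for Sult2a4 (0.752), and none of these passed limma in any alternative run. In Mrl/lpr mice Sult2a4 had 19 to 50 reads, Naaladl1 38 to 79 and Olfr1356 44 to 100, so counting error adds to their spread. A missed threshold does not show that these genes are independent of the score. On the immune score Ezh1 fell, at −0.32 ± 0.10 per unit (adjusted p = 0.0354). That call ended in 7 of 21 alternatives, among them without MMF mouse 1, where the slope was −0.18 (adjusted p = 0.167), without MMF mouse 27 (adjusted p = 0.101), vehicle mouse 7 (0.0661), prednisone mouse 35 (0.0641), multi-target mouse 39 (0.0584) or multi-target mouse 18 (0.0543), and without vehicle mouse 17 and FK506 mouse 12 together (0.0571). Ezh1 was higher in the Mrl/lpr mice, whose immune scores were all above the healthy ones. A slope among mice of the same treatment cannot address that step, and the part of immune cells in it was not tested.

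Among the other genes the immune slope was −0.25 ± 0.10 for Zfp788 (limma adjusted p = 0.0938) and 0.64 ± 0.24 for Sult2a4 (adjusted p = 0.0835). Zfp788 passed after quantile normalization (0.0187) and without the lowest 25% of genes (0.0479), and Sult2a4 passed with a constant prior variance (0.0495) and with all 18 libraries (0.042). The remaining 7 genes had adjusted p from 0.261 to 0.996.

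**Figure D4:**
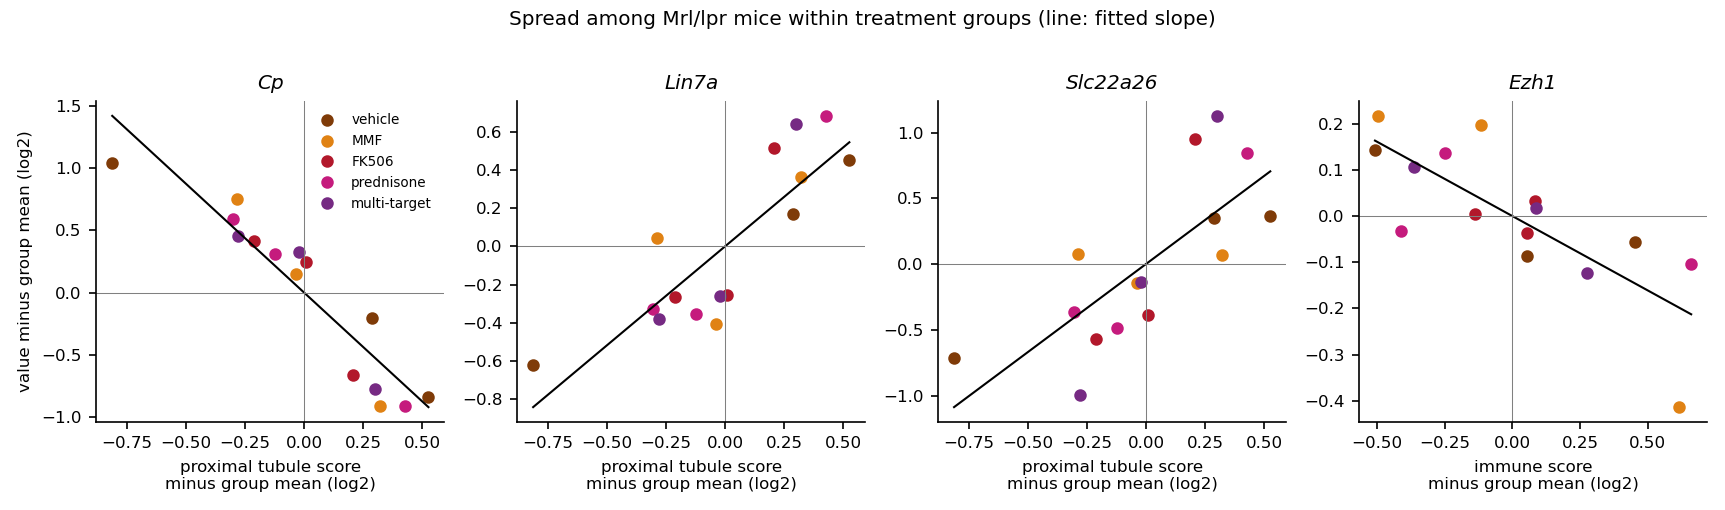
Values of Cp, Lin7a and Slc22a26 against the proximal tubule score, and of Ezh1 against the immune score, each minus its group mean (log2, both axes) for the 15 Mrl/lpr mice, coloured by treatment. The line is the fitted slope, −1.74 for Cp, 1.03 for Lin7a, 1.34 for Slc22a26 and −0.32 for Ezh1. The vehicle mouse at the far left of the first 3 panels is mouse 36, and the lowest Ezh1 point is MMF mouse 1.

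Many relatives of Slc22a26 were lower too. Of 20 other family members, limma called 10 lower and 2 higher in the pooled comparison, with Slc22a28 at −3.18 ± 0.97, Slc22a22, a transporter of prostaglandins, at −2.06 ± 0.63 and Slc22a30 at −1.90 ± 0.41. The higher ones were Slc22a15 (0.69 ± 0.23) and Slc22a21 (0.59 ± 0.21). Of the 18 members that are not part of the proximal tubule score, 12 rose with that score within the Mrl/lpr groups and 1 fell (Slc22a15, −0.87 ± 0.16), among them Slc22a29 at 2.03 ± 0.15 (adjusted p = 0.000217) and Slc22a7, an organic anion transporter of the proximal tubule, at 3.18 ± 0.57 (adjusted p = 0.00468). The transcript of Slc22a26 aligns to that of Slc22a28 at 74.6% identity over 60.7% of its length, and to AC115715.1, which has no value here, at 92.6% over 44.7%. Of 11 other genes of sulfation, limma called 2 higher and 3 lower, with Sult1a1 at 1.10 ± 0.38, Sult1e1, an estrogen sulfotransferase, at 0.99 ± 0.18 and Papss2, which makes the sulfate donor, at −0.76 ± 0.22.

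Positions were taken from GENCODE M21 on GRCm38, the assembly that mm10 in the submitters' processing notes refers to. The 10 genes lie on 7 chromosomes. Ezh1 lies at chr11:101191115-101226463 on the minus strand, Cp at chr3:19957054-20009145 on the plus strand, Vipr1 at chr9:121642716-121672954 on the plus strand and Lin7a at chr10:107271686-107421474 on the plus strand. Olfr1356 lies at chr10:78845052-78852166, Sult2a4 at chr7:13909676-13989607 and Zfp788 at chr7:41633203-41651530. Slc22a26 (chr19:7781041-7802667) and Naaladl1 (chr19:6105782-6115792) are on the chromosome of Fas (chr19:34290666-34327772), 26.5 Mb and 28.2 Mb away from it. All 10 are annotated as protein-coding.

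The Slc22 genes next to Slc22a26 were lower as well. Within 1 Mb of Slc22a26, limma called 18 of 44 genes, and the 7 Slc22 genes there had pooled differences from −3.18 (Slc22a28) to −1.05 (Slc22a8), with −1.27 ± 0.26 for Slc22a27, the nearest by the gap between gene bodies, which was called, and −2.05 ± 0.79 for Slc22a19 on the other side, which was not. Within 1 Mb of Ezh1, 12 of 60 genes were called, with pooled differences between −0.96 (Krt42) and 1.60 (Ifi35). Cntnap1, which ends 391 bases from Ezh1, was lower by contrast (−0.50 ± 0.14), and Ramp2 on the other side had 0.10 ± 0.20. Within 1 Mb of Naaladl1, 22 of 75 genes were called, while the nearest, Sac3d1 at 208 bases and Cdca5, had −0.08 and −0.05. The windows of Slc22a26 and Naaladl1 overlap and share genes.

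**Figure D5:**
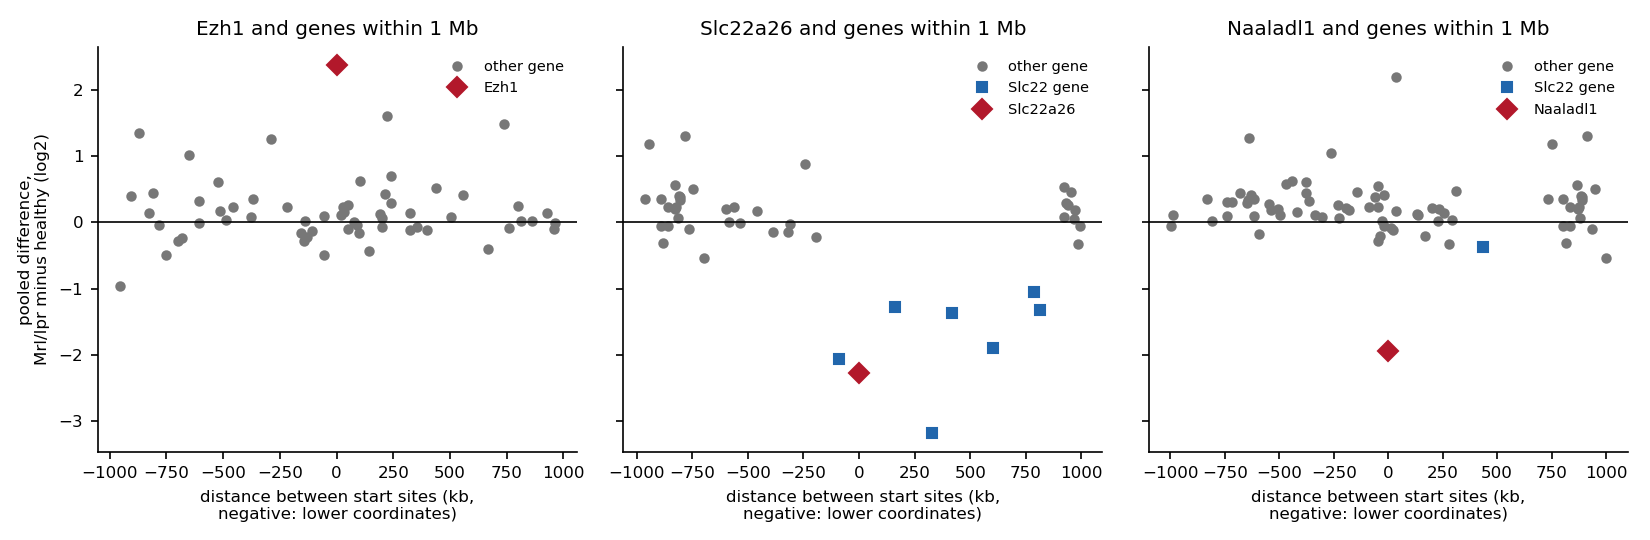
Pooled difference from healthy (log2, y axis) of the genes with values within 1 Mb of Ezh1, Slc22a26 and Naaladl1, by the distance between their transcription starts and that of the named gene (kb, x axis). The red diamond is the named gene, blue squares are Slc22 genes and grey points all others. Around Slc22a26 the Slc22 genes lie between −3.18 and −1.05, while Ezh1 and Naaladl1 stand away from the points around them.

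For the remaining genes the nearest measured neighbours had smaller differences. Those beside Zfp788 were AW146154 (0.22, 133.3 kb away) and Zfp715 (0.08, 1644.7 kb away), with 0 of 3 genes called within 1 Mb. Those beside Vipr1 were Trak1 (0.07) and Sec22c (0.01), with 3 of 13 called. Beside Cp were 4632415L05Rik (0.15) and Hltf (−0.35, called), and beside Lin7a Acss3 (−0.90, called) and Ptprq (0.23). Within 1 Mb, 4 of 7 genes were called around Cp and 1 of 4 around Lin7a. Beside Sult2a4 were Pla2g4c (0.27, 549.0 kb away) and Crxos (1.11, called, 1893.0 kb away). Olfr1356 lay between Casp14 (−0.57, called) and 2610008E11Rik (0.28), and Pde6a between Slc26a2 (−0.59, called) and Ppargc1b (−0.34). Within 1 Mb, 1 of 7 genes was called around Sult2a4, 5 of 30 around Olfr1356 and 8 of 27 around Pde6a. In the Pde6a window the largest difference was that of Gm4841 (5.72). Counts of called genes within a window can be read against the 26.2% called over all genes.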

How the data were processed

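RNA sequencing of kidney cortex from 18 mice was analysed from the processed values. The authors deposited log2 expression values per gene symbol, 1 file per library, with 15035 genes in each. Tools named in the submitters' processing notes are limma, with mm10 as the build, and no version of either. The aligner is not given in the sources used here. Taken off the log2 scale, between 76.5% and 77.2% of a library's values were whole multiples of a step common to that library (tolerance 0.01 of a read), and dividing by the step gave the reads behind each gene. It is not known how the remaining genes were summarised. In 23 rows the symbol had been turned into a date. They were tested but are not named.

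Values were fitted as deposited in limma 3.58.1 (R 4.3.3) with group means over the 18 libraries, 12 residual degrees of freedom, a mean-dependent prior variance, no filter and no pseudocount, and Benjamini-Hochberg adjustment over all genes at 0.05. The comparisons were the mean of the 5 Mrl/lpr groups against healthy, each of these groups against healthy, and any difference among the 5. Slopes on the proximal tubule and immune scores were fitted over the 15 Mrl/lpr libraries with group means, leaving 9 residual degrees of freedom. The fits were tested on simulated data. Transcripts of GENCODE M21 were compared with blastn 2.17.0, and 14295 symbols matched the annotation.

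The mouse numbers in the titles pair no samples, since no 2 groups share more than 1 number. The p-values rest on a shared spread between mice for each gene, pooled over the groups in the fit and moderated over all genes. Where groups differ in spread, it is not that of the groups compared, as for Zfp788 (healthy SD 1.25) and Lin7a (healthy SD 0.01). The total reads per library, 28939845 to 41066953, make counting error small beside the spread between mice for most genes. Alternatives were quantile normalization, leaving out the lowest 25% of genes, a pseudocount of 10, a constant prior variance, fits of only the 2 groups compared, each library left out in turn, vehicle mouse 17 and FK506 mouse 12 left out together, and slopes over all 18 libraries. Genes named are the 10 members, their nearest measured neighbours, up to 3 called genes of each family list, the 5 leading step-like genes in each direction, Fas and the check genes, and any others are said to be chosen after their values were seen. Ezh2, Eed, Tfrc, Slc31a1, the Naaladl1 relatives, further Slc22 genes and the window extremes Krt42, Ifi35 and Gm4841 were added in that way. The members and gene lists were chosen with earlier results of these data known.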

Additional observations from a re-analysis of the deposited data

How the results depend on the processing

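No difference of the 10 genes from healthy changed direction in any alternative, and 222 of 225 recomputed differences moved by less than the spread between mice. The 3 that moved were Olfr1356 after quantile normalization (1.21) and with a pseudocount of 10 (1.55), and Zfp788 without healthy mouse 3 (2.29). Of 410 recomputed slopes, 393 stayed on the same side of the threshold. Leaving out the lowest 25% of genes removes 5 of the 10 genes (Sult2a4, Olfr1356, Naaladl1, Vipr1 and Pde6a). No paired analysis was possible because the groups compared share fewer than 2 mouse numbers.

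The number of genes called over the whole table depended more on the settings, and the cause was not tested. After quantile normalization it was 710 for FK506 and 675 for multi-target against healthy. Without the lowest 25% of genes it was 2226 for vehicle, 606 for FK506 and 623 for multi-target. Fits of only the 2 groups compared gave 1459 for MMF, 3673 for FK506, 4111 for prednisone and 3238 for multi-target. With vehicle mouse 17 and FK506 mouse 12 left out it was 213 for FK506 and 879 for the proximal tubule slope. With single libraries left out, the count ran from 1680 to 5377 in the pooled comparison, 1490 to 4340 for vehicle, 487 to 5802 for MMF, 239 to 1814 for FK506, 1036 to 3509 for prednisone and 223 to 1759 for multi-target. It ran from 0 to 2097 among the 5 Mrl/lpr groups, 1514 to 3255 for the immune slope and 901 to 2613 for the proximal tubule slope. The lowest pooled counts were those without 1 healthy mouse (1680, 1780 and 1843). Counts for the slopes moved by over 1.5 times without MMF mouse 1, MMF mouse 27 or prednisone mouse 23 (immune) and without vehicle mouse 17, vehicle mouse 36 or prednisone mouse 29 (proximal tubule).

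The depth limits Olfr1356 most, with 15 to 25 reads in healthy mice, and Sult2a4 next, with 19 to 50 reads in Mrl/lpr mice.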
